A study of Mus musculus with 16 samples.

Results

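Thymic regulatory T (Treg) cells of mice that lack CNS4, a conserved non-coding sequence upstream of Foxp3, were compared with Treg cells of CNS4FL/Y mice by ATAC-seq, which reads where a transposase can insert into DNA. All peaks with a mean normalised read count of at least 10 over the 4 Treg libraries were taken, which gave 71578 of the 73442 peaks in the table. The 2 KO libraries came from 2 male CNS4KO/YFoxp3GFP/Y mice and the 2 FL libraries from 2 male CNS4FL/YFoxp3GFP/Y mice, all on the C57BL/6J background. Both genotypes carry the Foxp3-GFP reporter, which was also the sort marker: Treg cells were the GFP-positive, CD4-positive, CD8-negative, TCRβ-positive cells of the thymus. From the same 4 mice the study also sorted preTreg cells, which are CD25-positive and GFP-negative, and CD25-negative single positive (SP) cells labelled mSP and smSP. Reads in peaks numbered 6580712 and 8247109 in the KO Treg libraries, and 7741253 and 11437401 in the FL ones.

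Foxp3 is the transcription factor that defines Treg cells, and its gene is controlled by a set of conserved non-coding sequences that act at different steps of its induction and maintenance. In the thymus, strong T cell receptor signals first give a CD25-positive precursor, and IL-2 acting through STAT5 then drives Foxp3 expression. Foxp3 lies on the X chromosome, so a male mouse has a single copy of the locus. Satb1 and Arpp21 are genes of earlier thymocytes, whereas Il2rb, Tigit and Nrp1 are active in Treg cells.

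Most tested peaks lie away from gene starts, but 8 promoters of the listed and most-called genes were overlapped by a peak that differed between genotypes. Sequence is given for 6 of these, namely Tigit, Tnfrsf18, Socs3, Gpr15, Ccr9 and Btg1, but not for Cebpa and Klf2. Tigit, Tnfrsf18, Socs3, Gpr15 and Cebpa were overlapped by a peak higher in KO. Ccr9, Btg1 and Klf2 were overlapped by a peak lower in KO. The overlap was 250 bases at Tigit, 127 at Tnfrsf18, 220 at Socs3, 80 at Gpr15, 104 at Ccr9 and 250 at Btg1. Each is the 250 bases before the RefSeq start (GRCm38.p6), on the strand of the gene, at chr16:43664185-43664434 (minus, Tigit), chr4:156026072-156026321 (plus, Tnfrsf18), chr11:117969367-117969616 (minus, Socs3), chr16:58718873-58719122 (minus, Gpr15), chr9:123766961-123767210 (plus, Ccr9) and chr10:96616751-96617000 (plus, Btg1). Capitals mark matches on either strand to TTCNNNGAA (STAT), TGANTCA (AP-1), TGTGGT (Runx) or TGTTTAC (forkhead).
Tigit: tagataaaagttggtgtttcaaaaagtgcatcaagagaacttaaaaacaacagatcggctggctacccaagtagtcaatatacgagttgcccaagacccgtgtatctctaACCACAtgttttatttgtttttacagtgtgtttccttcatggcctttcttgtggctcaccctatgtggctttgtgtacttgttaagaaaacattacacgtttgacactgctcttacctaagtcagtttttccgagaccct
Tnfrsf18: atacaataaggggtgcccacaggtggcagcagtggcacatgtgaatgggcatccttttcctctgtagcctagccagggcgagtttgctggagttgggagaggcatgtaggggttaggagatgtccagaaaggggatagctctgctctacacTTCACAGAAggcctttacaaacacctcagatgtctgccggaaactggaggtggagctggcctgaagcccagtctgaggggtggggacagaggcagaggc
Socs3: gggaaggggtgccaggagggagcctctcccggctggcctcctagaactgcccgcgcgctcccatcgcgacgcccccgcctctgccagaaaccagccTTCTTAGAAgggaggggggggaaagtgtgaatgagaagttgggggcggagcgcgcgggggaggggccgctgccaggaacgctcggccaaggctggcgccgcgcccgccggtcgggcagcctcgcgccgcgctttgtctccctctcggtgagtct
Gpr15: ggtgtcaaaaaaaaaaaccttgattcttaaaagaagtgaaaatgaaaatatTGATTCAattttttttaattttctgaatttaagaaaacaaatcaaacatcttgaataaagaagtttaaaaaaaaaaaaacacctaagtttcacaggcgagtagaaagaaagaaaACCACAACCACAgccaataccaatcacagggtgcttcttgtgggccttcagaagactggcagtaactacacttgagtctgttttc
Ccr9: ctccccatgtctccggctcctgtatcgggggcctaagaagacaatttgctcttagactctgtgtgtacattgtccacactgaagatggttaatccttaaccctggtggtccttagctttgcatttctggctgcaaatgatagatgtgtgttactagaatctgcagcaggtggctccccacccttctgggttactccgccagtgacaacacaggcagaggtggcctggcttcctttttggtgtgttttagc
Btg1: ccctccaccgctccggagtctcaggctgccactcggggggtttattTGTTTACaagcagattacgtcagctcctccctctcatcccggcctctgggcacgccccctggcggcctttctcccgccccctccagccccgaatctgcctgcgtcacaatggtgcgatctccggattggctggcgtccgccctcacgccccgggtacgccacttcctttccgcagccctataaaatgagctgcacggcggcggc
The STAT letters stand in the Tnfrsf18 and Socs3 windows, the Runx letters once in Tigit and in a pair of adjacent matches in Gpr15, the AP-1 letters in Gpr15 and the forkhead letters in Btg1. None of these letters is in the Ccr9 window, or in those of Cebpa and Klf2. In Gpr15 the AP-1 match, at -199 from the start, lies outside the peak, as does most of the Runx match at -85. Of all 32851 promoters of this length, 7.02% held the STAT letters, 6.75% the AP-1, 14.0% the Runx and 3.17% the forkhead letters. The Runx letters were in 16.1% of the 168 promoters under a peak higher in KO, 4.00% of the 75 under a peak lower in KO and 10.4% of the 11386 under any tested peak, and the STAT letters in 7.74%, 5.33% and 5.59% of the same sets. These shares are a description, with no test, and a match is not a binding site. A promoter counted as under a peak where any base overlapped, so a match may lie outside the peak.

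Treg and T cell markers had signal in the Treg libraries, but so had many markers of other cells, so signal alone does not identify the cells. The Treg markers Foxp3, Il2ra, Ctla4, Ikzf2, Ikzf4, Tnfrsf18, Tnfrsf4, Nrp1, Izumo1r and Gpr83 and the T cell markers Cd3e, Cd3d, Cd3g and Cd4 all had peaks with signal in all 4 libraries. Of the 7 B cell markers 4 had tested peaks, namely Blnk and Cd79a with 1 each, Ebf1 with 3 and Pax5 with 2, while Cd79b and Ms4a1 were among those with none. Of the 10 myeloid markers 4 had tested peaks, namely Flt3 with 9, Spi1 with 4, Itgam with 2 and Cebpa with 1. Lyz2, Csf1r, Cd14, Fcer1g, Itgax and Siglech had none. Tested peaks were also found for 6 of 6 CD8 T cell, 6 of 8 NK, NKT and gamma-delta, and 8 of 13 erythroid and stromal markers. The mean log2 level of the erythroid and stromal peaks was 6.19 to 6.21 in the Treg libraries. For the Treg signature peaks it was 6.04 to 6.27. KO library 2 stood between KO library 1 and the FL libraries: the first principal component, with 53.9% of the variance, placed the KO libraries at 81.4 and 15.1 and the FL libraries at -50.0 and -46.5. On the log2 scale KO library 2 correlated with KO library 1 at r = 0.952 and with FL library 2 at r = 0.954 (Pearson, across 71578 peaks, which are not replicates). The share of reads in promoter windows was 38.4% and 39.1% in KO, against 38.9% and 38.8% in FL.

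The deleted element read as deleted. The peak at chrX:7570739-7571052 (mm10), centred 8.78 kb before the Foxp3 start and within the gene body of Ppp1r3f, had 0 reads in both KO libraries, against 138 and 169 reads (normalised counts of 139.6 and 117) in the FL libraries. Against a floor of 3 reads over both KO libraries it was at least 79.6-fold lower in KO (limma, adjusted p = 3.71e-09). It was the 1 tested peak with no read in either KO library, and no tested peak lacked reads in both FL libraries.

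A pair of neighbouring peaks inside the Foxp3 gene body rose in KO. The peak at chrX:7584167-7584401 had normalised counts of 149.6 and 143 in KO, against 66.8 and 71.8 in FL (log2 fold change 1.07, SE 0.18, limma adjusted p = 0.000893). Its neighbour at chrX:7583902-7584149 had 207 and 169.9 in KO, against 84.0 and 112 in FL (0.94, SE 0.17, adjusted p = 0.00174). At both peaks each KO library lay above each FL library. Outside Treg cells they were nearly closed, with at most 4.60 in any preTreg or SP library of either genotype. The first stayed called without any 1 library (adjusted p from 6.65e-05 to 0.008), while the second had an adjusted p of 0.0561 without FL library 1. With the spread taken from all 16 libraries, most of which have almost no signal here, neither was called (adjusted p = 0.615 and 0.673).

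Peaks around the gene moved in both directions. At the far end of Foxp3, where its gene body overlaps that of Ccdc22, the peak at chrX:7595027-7595312 fell to 59.6 and 44.2 in KO, against 94.1 and 95.2 in FL (log2 fold change -0.87, SE 0.22, limma adjusted p = 0.0218). Like the pair that rose, it was nearly closed outside Treg cells, with at most 4.03 in any preTreg or SP library. The adjoining Ccdc22 peak had 26.8 and 27.8 in KO, against 45.5 and 55.9 in FL, and was not called (-0.86, adjusted p = 0.0838). Between the CNS4 peak and Foxp3, the peak at chrX:7572485-7572749 rose to 137 and 138 in KO, against 97.1 and 77.3 in FL (0.66, SE 0.18, adjusted p = 0.0388). The Ccdc22 peak lost its call without either FL library (adjusted p = 0.165 and 0.166), and the Ppp1r3f peak without either FL library or KO library 1 (0.0651, 0.427 and 0.0688). The promoter peak of Ppp1r3f and a peak in Flicr, a long non-coding RNA gene next to Foxp3, had log2 fold changes of 0.00 and 0.12 and were not called (adjusted p = 0.996 and 0.696).

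**Figure D1:**
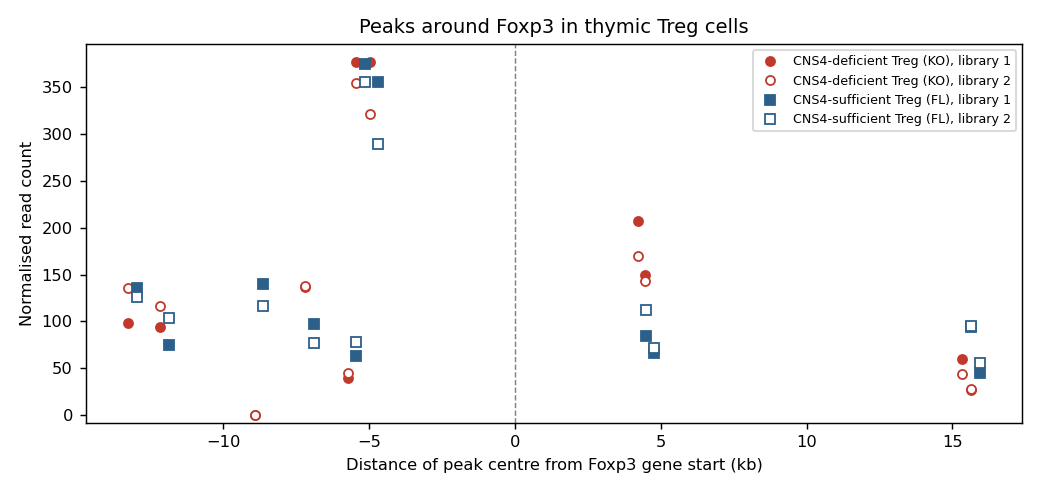
Normalised read count of each tested peak from 15 kb before to 5 kb past Foxp3, against the distance of the peak centre from the Foxp3 start in kb, with KO points set slightly left of FL points. Both KO libraries are at 0 at -8.78 kb, and both lie above the FL libraries at 4.35 and 4.61 kb.

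Beyond the locus, accessibility differed at many sites. By limma 1947 of 71578 peaks were called (2.72%), of which 1188 were higher in KO (1.66%) and 759 lower in KO (1.06%). With edgeR on recovered reads 2210 were called (3.09%), and 1917 of the 1947 were among them. The called folds were moderate, with a median log2 fold change of 0.90 for higher and -0.93 for lower peaks, and 430 and 315 of them were at least 1 in size. KO and FL values did not overlap at 32604 peaks, or 45.6% of those tested, so separation of the libraries alone says little about a peak. The number of calls rested on single libraries, with 1209 called without KO library 1, 6628 without KO library 2, 743 without FL library 1 and 905 without FL library 2. The balance of directions did too, with 541 higher and 668 lower without KO library 1, and 500 higher and 773 lower with the spread of all 16 libraries. DESeq2 called 308 peaks, 232 higher and 76 lower.

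Called peaks were wider and more distal than the rest. The median width was 248 bases for peaks higher in KO and 218 bases for peaks lower in KO, against 170 bases over all tested peaks. Promoter windows, from 250 bases before to 50 after a RefSeq start, held 12.4% of the higher and 8.70% of the lower peaks, against 17.8% of all. Whether a peak is called depends also on its number of reads, and the part of this in the widths and shares was not tested. The share called higher was between 1.11% and 2.41% on each autosome and 1.13% on the X chromosome. The share called lower was between 0.36% (chromosome 11) and 1.90% (chromosome 10) on each autosome and 0.87% on the X chromosome.

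Treg signature genes had more called peaks higher than lower in KO. Of the 302 tested peaks of 20 such genes, 24 were higher and 5 lower in KO, which is 7.95% and 1.66%, against 1.66% and 1.06% of all peaks tested, and the list median was 0.11, against 0.00 over all peaks tested. Nrp1, which encodes the surface protein neuropilin-1 of thymic Treg cells, had 6 peaks higher and 2 lower among 27. Of these, 1 higher and both lower peaks lie in the gene body, and the other 5 higher ones lie 23671 to 44799 bases outside it. Tigit, an inhibitory receptor, had 4 higher among 23, and Tnfrsf1b, the TNF receptor 2 gene, had 3 higher among 25. Icos, a co-stimulatory receptor gene, had 2 higher and 1 lower among 24, and Ikzf4, Tnfrsf18 (GITR) and Izumo1r had 1 higher peak each. Ctla4, which restrains co-stimulation, had no called peak among 21, Il2ra, the CD25 gene, had 1 lower among 19, and Ikzf2 (Helios) had 1 higher and 1 lower among 55. Foxp3, the sort marker itself, gave 2 of the 24. The lower peak at chrX:7595027-7595312, which overlaps the gene bodies of both Foxp3 and Ccdc22, was given to Ccdc22. It is therefore not among the lower peaks of this list.

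The strongest Nrp1 peak by test, chr8:128549715-128550175, lies 44239 bases outside the gene body and was given to Nrp1 by distance. It had 455 and 387 in KO, against 195 and 199 in FL (log2 fold change 1.08, SE 0.12, limma adjusted p = 2.32e-06). The Tigit promoter peak, chr16:43663968-43664608, had 805 and 755 in KO, against 517 and 593 in FL (0.49, SE 0.08, adjusted p = 0.000752). At both peaks the KO libraries lay above the FL libraries. The Tnfrsf18 promoter peak had 117 and 111 in KO, against 72.8 and 62.1 in FL (0.75, adjusted p = 0.0281). Within the Nrp1 gene body, the peak at chr8:128473822-128474217 had 218 and 249.6 in KO, against 299 and 381 in FL (-0.53, adjusted p = 0.0164). The other lower one, chr8:128491790-128491898, had 30.4 and 36.5 in KO, against 70.8 and 73.8 in FL (-1.10, adjusted p = 0.00914). The higher one there, chr8:128385026-128385224, had 135 and 132 in KO, against 70.8 and 82.1 in FL (0.80, adjusted p = 0.0124). The list's counts were 10 higher and 4 lower without KO library 1, 43 and 9 without KO library 2, 13 and 1 without FL library 1, and 15 and 0 without FL library 2. They were 4 and 3 with the spread of all 16 libraries, and 4 and 0 by DESeq2. Nrp1 alone had 2 higher and 1 lower without KO library 1, and 0 higher and 2 lower with the spread of all 16 libraries.

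Among IL-2 and STAT5 genes, most of the peaks called higher in KO belonged to Il2rb and Socs3. Of the 148 peaks of 14 such genes 6 were higher and 2 lower in KO (4.05% and 1.35%, against 1.66% and 1.06% of all peaks), with a median of 0.12. Il2rb, the IL-2 receptor beta chain, which is also in the Treg signature list, had 3 of 10 peaks higher, Socs3, a feedback inhibitor of STAT signalling, had 2 of 6, and the cytokine gene Lif had 1 of 6. The peaks that fell belonged to Bcl2, a survival gene, and Il2ra. The feedback genes Cish, Socs1 and Socs2 and the kinase gene Pim1 had no called peak. The Il2rb peak at chr15:78493473-78494028 had 466 and 328 in KO, against 212 and 264 in FL (0.72, SE 0.14, limma adjusted p = 0.00594). The Socs3 promoter peak, chr11:117969017-117969586, had 316 and 230.4 in KO, against 174 and 153 in FL (0.72, SE 0.15, adjusted p = 0.00499). KO library 1 was the highest of the 4 libraries at both. The Socs3 call was lost without KO library 1 (adjusted p = 0.0959). The list gave 3 higher and 2 lower without KO library 1, 18 and 2 without KO library 2, 5 and 0 without FL library 1, and 6 and 1 without FL library 2. With the spread of all 16 libraries, as by DESeq2, it gave 1 higher and 0 lower.

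Of the effector genes, Il10 had the most peaks higher in KO. It is the gene of an anti-inflammatory cytokine made by effector Treg cells. All but 1 of its 6 peaks were called higher, with log2 fold changes from 1.09 to 1.66, and they span from 26163 bases outside the gene to its body. The peak at chr1:130993693-130994037 had 348 and 249.6 in KO, against 139.6 and 137 in FL (1.09, SE 0.15, limma adjusted p = 8.72e-05), and the peak in the gene body, chr1:131022670-131022914, had 145 and 81.6 in KO, against 38.4 and 31.7 in FL (1.61, adjusted p = 0.000344). The number of Il10 calls was 5 without KO library 2 and 4 without any other 1 library, 0 with the spread of all 16 libraries and 2 by DESeq2. The effector or recirculating list as a whole had 7 of 202 peaks higher and 3 lower (3.47% and 1.49%; median 0.06), so Il10 gave 5 of the 7. The other 2 were a Ccr6 peak, of a chemokine receptor gene, and a peak near Bach2, a repressor of effector programmes, which also had 2 peaks lower. Rora had 1 lower, and Prdm1, Batf, Maf, Klrg1, Ccr8 and Tbx21 had none called. Without FL library 1 the list gave 5 higher and 0 lower, and without FL library 2 7 and 0. It gave 7 and 2 without KO library 1, 12 and 7 without KO library 2, 1 and 2 with the spread of all 16 libraries, and 3 and 0 by DESeq2.

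Gpr15, a receptor that guides T cells to the large intestine, had 5 of 8 peaks higher, including that at its promoter. The promoter peak, chr16:58718788-58718952, had 45.0 and 46.1 in KO, against 17.2 and 15.2 in FL (log2 fold change 1.44, limma adjusted p = 0.00983), and the strongest peak, chr16:58701740-58702235, had 689.6 and 485 in KO, against 229.6 and 279 in FL (1.19, SE 0.13, adjusted p = 7.17e-05). KO values lay above FL values at both in Treg cells. At the promoter peak KO was also higher in preTreg cells, with 50.8 and 64.3, against 36.0 and 21.2 in FL. The SP libraries held 41.3 to 69.9 there in KO, against 26.9 to 59.8 in FL. The number of Gpr15 calls was 3 to 6 with 1 library left out, 2 with the spread of all 16 libraries and 1 by DESeq2. Sh3bgrl2 had 5 of 11 peaks higher, with 516 and 415 in KO, against 239 and 239 in FL at its lead peak (0.95, SE 0.11, adjusted p = 1.15e-05). Sfi1, a centrosome protein gene, had 9 of 35 peaks higher, with folds from 0.50 to 1.09. Sfi1 lies in repeated sequence in the mouse genome, so its reads may be shared between copies and its values are uncertain. Its count was 5 without KO library 1, 22 without KO library 2, 11 without FL library 1, 3 without FL library 2, 0 with the spread of all 16 libraries and 3 by DESeq2. For Sh3bgrl2 it was 9 without KO library 2, 4 without any other 1 library, 2 with the spread of all 16 libraries and 3 by DESeq2.

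**Figure D2:**
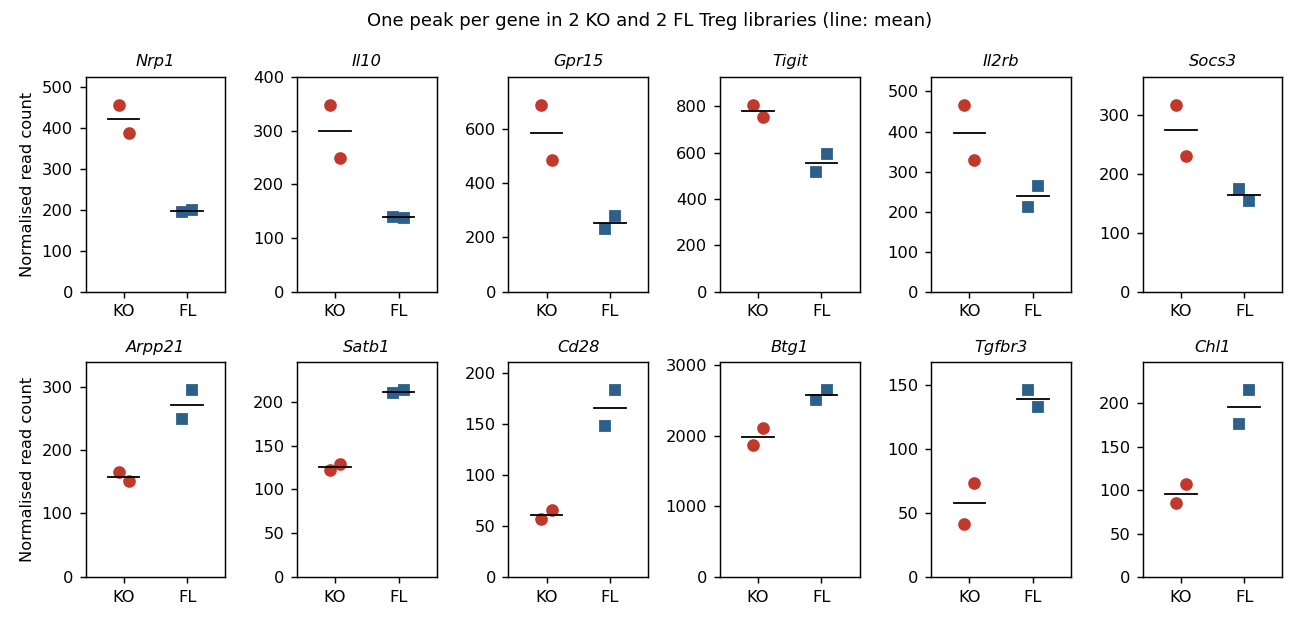
Normalised read count of 1 peak for each of 12 genes in the 2 KO and 2 FL Treg libraries, with a line at each mean. The upper row (Nrp1, Il10, Gpr15, Tigit, Il2rb, Socs3) is higher in KO. The lower row (Arpp21, Satb1, Cd28, Btg1, Tgfbr3, Chl1) is lower in KO. The peaks were picked as called with the smallest p of their gene. No panel has overlap of the libraries, which also holds for 45.6% of all tested peaks.

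Among genes of double positive and immature thymocytes, the stages before commitment to the CD4 lineage, called peaks were mostly lower in KO. Of the 305 tested peaks of 19 genes, 20 were lower and 1 higher in KO (6.56% and 0.328%, against 1.06% and 1.66% of all peaks), the lower ones at 6 of the genes. The list median was -0.25, and 228 folds were below 0. Arpp21, a gene active at the double positive stage, had 11 of 20 peaks lower, with log2 fold changes from -1.87 to -0.54. Satb1, a chromatin organiser of thymocytes, had 4 of 69 lower, and Ccr9, a chemokine receptor of immature thymocytes, had 2 of 10. Themis, Myb and Sox4 had 1 lower each, while Tox had 1 higher. Rag1, Rag2, Cd24a and Dntt were among the genes with none called.

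At the Arpp21 peak with the smallest p, chr9:112174793-112175071, counts were 165 and 151 in KO, against 249 and 294 in FL (-0.77, SE 0.14, limma adjusted p = 0.00144). The lead Satb1 peak, chr17:51762505-51762814, had 122 and 129 in KO, against 210.4 and 213 in FL (-0.76, SE 0.15, adjusted p = 0.00361). Both KO libraries were below both FL libraries at each. The Ccr9 promoter peak, chr9:123767107-123767270, had 6.08 and 20.2 in KO, against 34.4 and 38.0 in FL (-1.60, adjusted p = 0.0371). The Arpp21 lead call was lost without FL library 2 (adjusted p = 0.0781), and that of Satb1 without either FL library (0.0515 and 0.0555). The list gave 15 lower peaks without KO library 1, 67 without KO library 2, 8 without FL library 1, 4 without FL library 2, 17 with the spread of all 16 libraries and 3 by DESeq2, and its median was between -0.36 and -0.20 with 1 library left out. Arpp21 alone gave 5, 14, 4 and 2 without KO library 1, KO library 2, FL library 1 and FL library 2.

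In summed normalised counts over its 318 peaks, the double positive and immature list had 20030.4 and 21783 in the KO Treg libraries, against 24482 and 25015 in the FL ones. In preTreg cells it had 19756 and 19325 in KO, against 18513 and 18812 in FL. The KO Treg libraries thus lay nearer the preTreg level than the FL Treg libraries did. The Cd8a peaks, whose protein was gated out, summed to 59.6 and 111 in KO Treg, against 110.2 and 146 in FL Treg, and no peak of Cd8a or Cd8b1 was called. In bulk libraries, fewer cells of a kind and less signal per cell cannot be told apart, and the part of admixed cells in this result was not tested.

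Peaks within a long non-coding RNA gene fell as well. The body of this gene, 2610307P16Rik (chr13:28460034-28885422), ends 63497 bases from Sox4. The gene had 11 of 48 peaks lower in KO and none higher, with folds from -1.39 to -0.42. The gene's lower peaks lay between bases 28512547 and 28839365, so each was farther from Sox4 than the gene end. Its lead peak, chr13:28695141-28695318, had 48.6 and 67.2 in KO, against 147 and 149 in FL (-1.36, SE 0.20, limma adjusted p = 0.00016). Chl1, a cell adhesion gene, and Tgfbr3, the TGF-beta co-receptor betaglycan, had 6 lower peaks each, among 20 and 27. At Chl1 the lead peak had 85.1 and 107 in KO, against 176 and 215 in FL (-1.02, SE 0.17, adjusted p = 0.000643). At Tgfbr3 it had 41.3 and 73.9 in KO, against 146 and 133 in FL (-1.32, SE 0.22, adjusted p = 0.000912). Btg1, an anti-proliferative gene, had 6 of 41 lower, and its broad promoter peak, chr10:96616399-96617807, had 1866 and 2103 in KO, against 2505 and 2638 in FL (-0.38, SE 0.05, adjusted p = 8.92e-05). KO values were the lower ones at each of these lead peaks. Without FL library 2 the number of lower calls was 3 for 2610307P16Rik, 4 for Chl1, 2 for Tgfbr3 and 1 for Btg1, and without KO library 2 it was 26, 10, 15 and 10. Without FL library 1 the counts were 5, 5, 4 and 2, and without KO library 1 they were 8, 4, 4 and 4. DESeq2 gave 1, 2, 1 and 2.

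Mature thymocyte and egress genes had 2 peaks higher and 6 lower of 203 (0.985% and 2.96%, against 1.66% and 1.06% of all peaks; median -0.04), with lower ones at S1pr1, the egress receptor, Klf2 and Ripor2 among them. The S1pr1 peak with the smallest p, chr3:115702192-115702355, had 14.6 and 14.4 in KO, against 53.6 and 33.8 in FL (-1.49, SE 0.35, limma adjusted p = 0.0132), a call lost without FL library 1 (adjusted p = 0.444) and with the spread taken from all 16 libraries (0.0912). Of the other called peaks assigned to S1pr1, 1 was lower and 1 was higher in KO. The list gave 0 higher and 4 lower without KO library 1, 8 and 14 without KO library 2, 2 and 1 without FL library 1, 1 and 1 without FL library 2, 0 and 1 with the spread of all 16 libraries, and 0 of either by DESeq2.

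In the other T cell lists the shares called were near or below those over all peaks in both directions, apart from lower peaks of the Foxp3 partner and regulator list. TCR and co-stimulation genes had 1 higher and 4 lower of 331 (0.302% and 1.21%; median -0.02), and 3 of the 4 lay near Cd28, the co-stimulatory receptor. At the Cd28 lead peak, 32467 bases outside the gene, counts were 57.2 and 65.3 in KO, against 148 and 183 in FL (-1.41, SE 0.19, adjusted p = 5.51e-05). The list gave 0 higher and 2 lower without either FL library, 0 and 7 without KO library 1, and 11 and 14 without KO library 2. The NF-kB list had 3 higher and 3 lower of 210 (1.43% each; median 0.07), with higher peaks at Nfkb1, Rel, which encodes a factor used for Foxp3 induction, and Tnfaip3. It gave 2 and 2 without KO library 1, 11 and 10 without KO library 2, 2 and 0 without FL library 1, and 1 and 0 without FL library 2. The Foxp3 partner and regulator list had 4 higher and 9 lower of 503 (0.795% and 1.79%; median -0.06), the lower ones including 4 of Satb1 and 4 of Foxp1. The balance of this list turned without either FL library, with 2 higher and 1 lower without FL library 1 and 5 and 1 without FL library 2, and also by DESeq2, with 2 and 1. It gave 3 and 11 without KO library 1, and 18 and 39 without KO library 2. CD4 lineage genes had 1 higher, at Ets1, and 0 lower of 237 (0.422% and 0%; median -0.03). The Ets1 call was lost without KO library 1 or either FL library (limma adjusted p = 0.182, 0.139 and 0.0745). Of the markers of other cells, 1 B cell peak (Blnk, lower) and 1 myeloid peak (Cebpa, higher) were called. The Blnk call was lost without KO library 1 or either FL library (adjusted p = 0.0886, 0.202 and 0.203), and the Cebpa call without FL library 1 (0.128). With all 4 Treg libraries, none of the 21 peaks of NK, NKT and gamma-delta T cells, the 13 of CD8 T cells or the 17 of erythroid and stromal cells was called by limma.

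**Figure D3:**
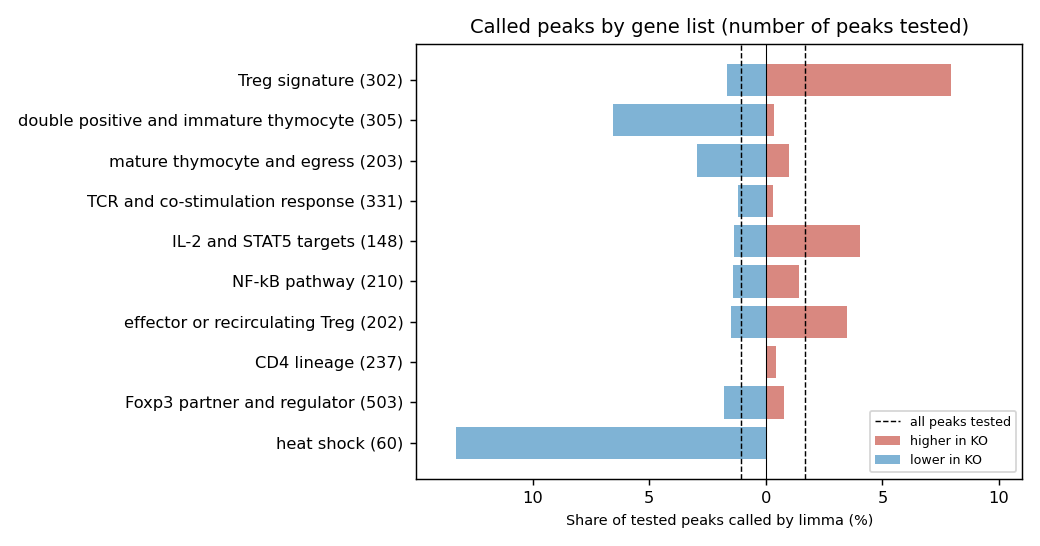
Share of the tested peaks of each gene list called by limma, in percent, with peaks lower in KO to the left and higher in KO to the right, and dashed lines at the shares over all peaks tested (1.66% higher, 1.06% lower). The Treg signature list reaches 7.95% higher, the double positive and immature list 6.56% lower and the heat shock list 13.3% lower.

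The called peaks of heat shock genes, which encode protein chaperones, were lower in KO Treg cells, and the summed level of the list was lower in KO preTreg cells too. In Treg cells 8 of 60 peaks were lower in KO and 0 higher (13.3%, against 1.06% lower over all peaks; median -0.36), with 3 at Hsp90ab1 and 2 at Hspa8. A peak 488 bases outside Hspa1a had 4.86 and 5.76 in KO Treg, against 30.3 and 47.6 in FL Treg (-2.63, SE 0.46, limma adjusted p = 0.00112). The same peak had 8.31 and 38.6 in KO preTreg, against 188 and 305 in FL preTreg. Summed over the 66 list peaks, KO Treg libraries had 8348 and 9019.9 and FL Treg libraries 9757 and 10605, while KO preTreg libraries had 8609 and 10281 and FL preTreg libraries 12762 and 14155. Left-out libraries gave 5 lower (KO 1), 17 (KO 2), 4 (FL 1) and 2 (FL 2), the spread of all 16 libraries gave 3 and DESeq2 gave 1. Serpinb10, a serine protease inhibitor gene, had a like pattern, with 3.65 and 2.88 in KO Treg, against 40.5 and 42.1 in FL Treg (-3.32, SE 0.50, adjusted p = 0.000245), and 7.39 and 5.51 in KO preTreg, against 122 and 148 in FL preTreg. At Serpinb10 the SP libraries held 0 to 5.43 in KO, against 122 to 170.2 in FL. The Hspa1a call was lost without FL library 2 (adjusted p = 0.209), and the Serpinb10 call without either FL library (0.0651 and 0.0624). With 2 mice per genotype, differences between the mice and the effect of the genotype cannot be told apart here.

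Among the largest folds, most peaks were weak. After Serpinb10 and Hspa1a, the lower peaks near Gm29684, Dhx29, Med12l, Sox5, Mad1l1 and Ldlrad3 and 1 peak with no gene within 50 kb had folds from -2.47 to -1.94, with FL means between 19.5 and 54.7. The 10 higher ones had folds from 1.80 to 2.11 and stood near Marchf3, Serpina3f, Nrp1, Ceacam15, Prss12, Gm8802, Batf3, Gm19596, Myrip and Eps8l3. Myrip, which links Rab27a vesicles to motors, had the smallest p of these, with 193 and 149.8 in KO, against 44.5 and 49.7 in FL (1.83, SE 0.20, limma adjusted p = 1.74e-06). Batf3, an AP-1 family factor gene, had 32.8 and 21.1 in KO, against 6.07 and 6.90 in FL (1.87, SE 0.49, adjusted p = 0.0289). With the spread of all 16 libraries 28 of the 51 called named peaks stayed called, and by DESeq2 23 did. Of the 51 named peaks that were called, 36 stayed called without KO library 1, 51 without KO library 2, 32 without FL library 1 and 29 without FL library 2. The Myrip call stood in each of these 4 fits. The Batf3 call was lost without KO library 1 and without either FL library (adjusted p = 0.266, 0.128 and 0.0771).

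The called peaks were then read in the preTreg and SP libraries, which had no part in calling them. Peaks higher in KO Treg cells were open in precursors and low in SP cells of both genotypes. Their median normalised count was 134 and 109 in KO Treg and 59.7 and 63.5 in FL Treg, 102 and 92.4 in KO preTreg and 95.9 and 96.2 in FL preTreg, and 25.2 to 34.9 in KO SP and 25.5 to 34.5 in FL SP libraries. Peaks lower in KO Treg cells ran the other way, with 46.2 and 53.8 in KO Treg and 97.1 and 95.2 in FL Treg, 46.2 and 49.6 in KO preTreg and 46.2 and 48.5 in FL preTreg, and 83.3 to 97.5 in KO SP and 88.6 to 99.6 in FL SP libraries. The gap between KO and FL Treg cells at these peaks follows from the calling, so its size is likely overstated. Within that limit, at peaks lower in KO, KO Treg medians lay near those of preTreg cells, and FL Treg medians near those of SP cells. At peaks higher in KO, FL Treg cells lay between preTreg and SP cells, and KO Treg cells at or above preTreg cells.

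**Figure D4:**
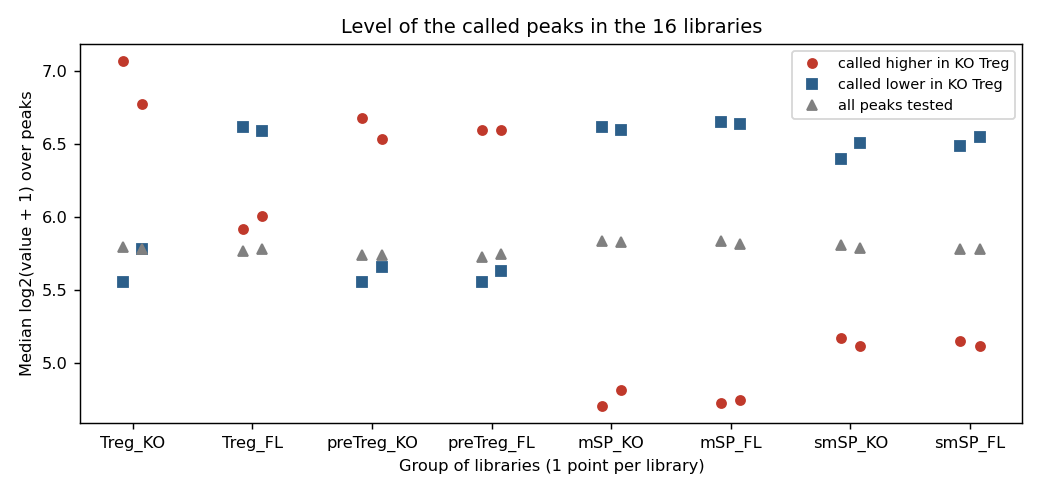
Median log2(value + 1) over the peaks called higher in KO Treg (1188), those called lower (759) and all peaks tested (71578), with 1 point per library in 8 groups. The Treg points were used in calling the peaks and the other 12 libraries were not. KO and FL differ in Treg, while preTreg and SP points of both genotypes nearly coincide.

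A pattern of the same direction was seen over all tested peaks, which include the called ones. In FL mice, the preTreg minus SP difference in log2(value + 1) had a median of 1.36 at peaks higher in KO Treg, with 92.0% above 0, and of -0.98 at peaks lower in KO, with 12.0% above 0, against 0.04 and 52.7% over all peaks. In KO mice the medians were 1.38, -0.88 and 0.03. SP is the mean of the libraries labelled mSP and smSP, so that the titles and descriptions of 1 KO mouse, which disagree on which is which, do not touch it. When all 71578 peaks were binned by this difference in FL mice, the median Treg log2 fold change was -0.36 in the bin under -2 (509 peaks), 0.01 in the bin around 0 (41440 peaks) and 0.56 in the bin over 2 (1811 peaks). In the top bin 23.6% of peaks were called higher in KO and 0.166% lower. KO library 1 lay 0.74 above the FL mean there and KO library 2 lay 0.41 above it. FL library 1 differed from FL library 2 by -0.07, and KO library 1 from KO library 2 by 0.32. In the lowest bin these values were -0.51, -0.11, -0.08 and -0.42, so the KO libraries differed widely from each other. Pearson's r of the Treg fold with the preTreg minus SP difference was 0.47 across peaks, 0.49 for KO library 1 alone and 0.31 for KO library 2 alone, a description across peaks that share libraries. The part of a shift in cell composition or maturity in this pattern was not tested.

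**Figure D5:**
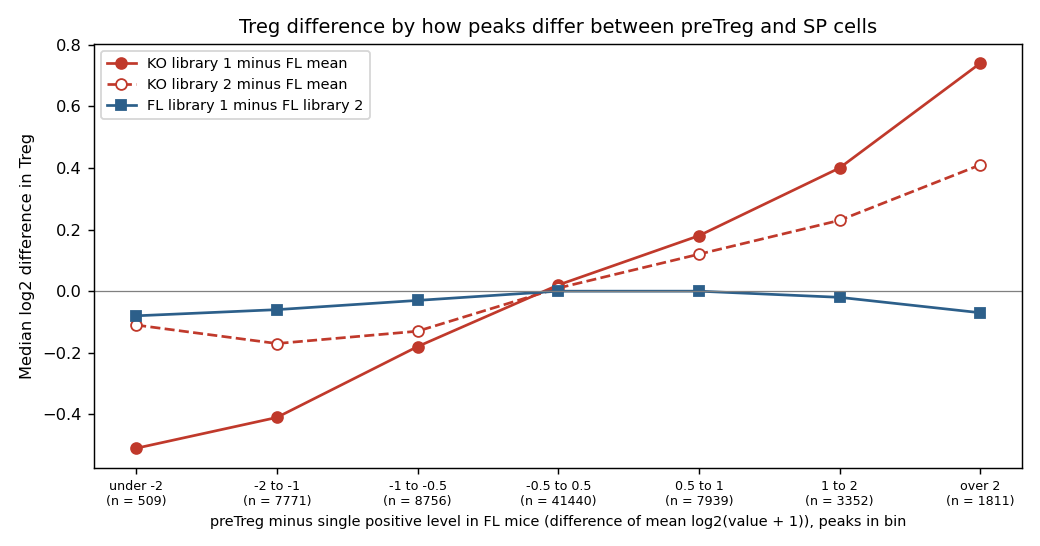
Median log2 difference in Treg cells (y) for peaks binned by their preTreg minus SP level in FL mice (x, difference of mean log2(value + 1)), for KO library 1 and KO library 2, each minus the FL mean, and for FL library 1 minus FL library 2. Both KO lines climb to 0.74 and 0.41 in the bin over 2, and the FL line stays between -0.08 and 0.00. KO library 1 minus KO library 2, which is not drawn, had medians of -0.42 in the bin under -2 and 0.32 in the bin over 2.

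Whether the genotype difference differed between Treg and preTreg cells was tested by the interaction of genotype and population, over 70900 peaks open in both. By limma 1019 peaks were called (1.44%), 601 with a more positive and 418 with a more negative difference in Treg. With the mouse as a block, since the 2 libraries of a mouse share an animal, 1931 were called, and edgeR called 1294. The count was 442 without KO Treg library 1, 2676 without KO Treg library 2, 267 and 426 without FL Treg library 1 or 2, and 331 to 476 without 1 preTreg library. At the peaks called in Treg, the KO minus FL difference in preTreg had a median of 0.04 for the higher and 0.07 for the lower set. Apart from those around Foxp3, named peaks were chosen by their Treg difference. The interaction reuses the same Treg libraries, and its p values do not allow for that choice. Among named peaks, it was called at the lead Nrp1, Il10, Il2rb, Socs3, Arpp21 and Cd28 peaks. The interaction log2 values were 0.86, 0.86, 1.01, 0.99, -0.95 and -2.01 (limma adjusted p = 0.00238, 0.0101, 0.0382, 0.0101, 0.0102 and 0.000929). At Tigit, Gpr15 and Satb1 the interaction was not called (0.34, 0.86 and -0.71, with limma adjusted p = 0.137, 0.0832 and 0.138). Nor was it called at Hspa1a and Serpinb10 (1.01 and 0.88, with limma adjusted p = 0.657 and 0.473). The 2 Foxp3 gene body peaks fell below the preTreg minimum and were not in this test.

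At the minimum that set the members, the peaks just inside had means of 10.0026 (Igll1) and 10.0032 (Gm36855), and those just outside had 9.9986 (no gene within 50 kb) and 9.9968 (Bach2).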

How the data were processed

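ATAC-seq libraries of thymic Treg, preTreg, mSP and smSP cells were grouped by their titles, with 2 mice per genotype. The submitters' processing notes name the build mm10 and the tools Trimmomatic 0.36, STAR 2.5.4b, SAMtools 1.10, Genrich, R 3.6.3 and DESeq2 1.24.0. The deposited signal is reads per peak scaled by the authors with 1 factor per library. No source used here says whether reads were shifted for the transposase. Dividing by the value of 1 read gave whole numbers within 0.0001 for 100% of values in each of the 16 columns. This recovery of reads was less certain for FL Treg library 1, whose 1-read value is close to 1, and recovered reads enter only alternative tests and the floor at the CNS4 peak. Median depth was 44 to 76 reads per peak over the Treg libraries, and the floor covers counting error only.

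KO and FL were compared with limma 3.58.1 in R 4.3.3, with a trend and robust moderation, on log2(value + 1) of the 4 Treg libraries, with Benjamini-Hochberg adjustment over 71578 peaks at 0.05. Fold changes are KO minus FL on that scale, which understates weak peaks. The fit has 2 residual degrees of freedom and a median of 30.2 prior ones, so p values rest largely on the spread of peaks of similar signal. The interaction with preTreg used 8 libraries. Alternatives were edgeR 4.0.16 (quasi-likelihood), DESeq2 1.42.0, other scalings, filters, pseudocounts, the replicate block and left-out libraries. Scripts were tested on simulated data.

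Peaks got the RefSeq (GRCm38.p6) gene body they overlap, protein-coding first, or the nearest within 50 kb, so that 98.9% of peaks have a gene; no exon, intron or genome sequence was used. The members and the 15 gene lists were chosen with earlier results of these data known. Named peaks are those around Foxp3, the 10 largest non-overlapping called folds per direction, the 5 genes with most called peaks per direction, and 1 or 2 genes per list; results of some genes examined are not reported here. The choice of 1 peak per such gene, the preTreg minus SP difference with its bins, the motifs and other named list genes were chosen after values were seen.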

Additional observations from a re-analysis of the deposited data

Results flagged for a closer look

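The following peaks are listed because their genotype difference (KO minus FL) differed between Treg and preTreg cells by the interaction test in limma, adjusted over 70900 peaks. The value given for each is the difference in Treg minus the difference in preTreg, on the log2 scale. All were named for their Treg difference, which the interaction reuses, so its p values do not allow for that choice.

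Positive values came from the following peaks. Nrp1 had 2, at 2.18 and 0.86, Il10 had 0.86, Il2rb 1.01 and Socs3 0.99. Ets1, a transcription factor gene of T cells, had 0.89, Cebpa, a myeloid factor gene, 1.16 and the AP-1 family gene Batf3 2.37. The others were 2.31 at Marchf3, 1.56 at Serpina3f, 1.97 at Prss12, 2.33 at Gm8802, 1.56 at Myrip, 0.79 at Sfi1 and 0.90 at Sh3bgrl2.

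Negative values came from the following peaks. Arpp21 had -0.95, the long non-coding RNA gene 2610307P16Rik had -2.03 and Cd28 -2.01. Bcl2l11, which encodes the pro-apoptotic protein Bim, had -1.27, Btg1 -0.32, Chl1 -0.96 and Tgfbr3 -1.40. The others were Gm29684 at -2.62, Med12l at -2.0, Sox5 at -2.66 and Ldlrad3 at -2.56.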

How the results depend on the processing

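The count of 1947 called peaks in Treg cells stayed within 1.5 times under edgeR, a pseudocount of 5, no filter, a mean of at least 30, equal totals and quantile normalization (1888 to 2210). It was 308 by DESeq2, 1273 with the spread of all 16 libraries and 1 with neither trend nor robust moderation (the CNS4 peak; 9276 at an unadjusted p under 0.05). Leaving out 1 library gave 743 to 6628 calls. Same-numbered Treg libraries deviated together with a correlation of 0.0423 across peaks, which cannot show whether replicate numbers pair the mice. The replicate block gave 3519 calls. The interaction gave 267 to 2676 calls with 1 library left out and 1931 with the replicate block, where the number is the mouse. Of the 60 named peaks 3 changed sign in some fit, all in the Foxp3 locus and none called. The Ppp1r3f peak at -13.1 kb was -0.40 to 0.06 with 1 library left out (0.06 without KO library 1), and the Flicr peak -0.03 (without FL library 2) to 0.27. The Ppp1r3f promoter peak was -0.01 by edgeR, -0.00 by DESeq2, -0.02 at equal totals, -0.03 after quantile normalization, and -0.04 (without FL library 2 or KO library 1) to 0.05 with 1 library left out. The cause of these changes was not tested. Peaks of few reads limit small folds, and 2 mice per genotype limit every p value.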
